A study of Mus musculus with 12 samples.

Results

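Keratins and vimentin are the subunits of the cytoplasmic intermediate filaments, and 7 of their genes, *Krt8*, *Krt18*, *Krt7*, *Krt19*, *Krt5*, *Krt80* and *Vim*, were followed in whole mouse kidneys with and without renal ischemia-reperfusion (IR). The genes were chosen by name, and all 7 were found among the 24421 gene symbols of the deposited tables. RNA-seq was performed on 12 libraries from male C57BL/6 mice at 6 weeks of age, 3 mice in each of 4 groups. The WT and *Tet2*-/- baseline groups were healthy kidneys with no operation. In the WT and *Tet2*-/- IR groups the right renal pedicle was clamped for 60 min, the left kidney was removed, and the kidney was collected 24 h later. The baseline mice had not been operated on, so clamping, anesthesia and loss of the other kidney cannot be told apart. The *Tet2*-/- mice were bred from heterozygous pairs as whole-body knockouts of *Tet2*, a 5-methylcytosine dioxygenase. The comparisons asked how IR changed the 7 genes in each genotype, how the genotypes differed in each condition, and whether the IR effect differed between genotypes.

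Intermediate filaments are rope-like polymers that give cells mechanical strength. Keratin filaments are built from obligate pairs of a type I and a type II keratin, and simple epithelia such as the renal tubule rely mainly on K8 with K18. Vimentin, a type III protein that assembles with itself, is the filament protein of mesenchymal, endothelial and blood cells, and of tubule cells that have lost their differentiated state after injury. In the kidney, K7 and K19 are known mainly from the collecting duct and the urothelium of the pelvis, and K5 marks basal cells of stratified epithelia and urothelium.

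The keratin genes lie in gene clusters of opposite type. In the mm9 build, the type II genes *Krt80* (chr15:101180002-101200556, minus strand), *Krt7* (chr15:101242834-101258237, plus), *Krt5* (chr15:101537501-101543322, minus) and *Krt8* (chr15:101827142-101834773, minus) lay on chromosome 15. *Krt18* (chr15:101858647-101862457, plus) is the type I gene at the edge of the type II cluster, and its start lay 23874 bases from that of *Krt8*, with both genes read away from each other. *Krt19* (chr11:100002126-100007240, minus) lay in the type I cluster, and *Vim* (chr2:13495938-13504453, plus) elsewhere. The 250 bases before the annotated start are given for the K8 and K18 assembly pair, for *Krt19* and *Krt5*, whose IR effects differed most between genotypes, and for *Vim*, the 1 member that is no keratin. Capitals mark a match to the GC box, the core promoter box or the AP-1 motif, whose letters are given after the sequences. All motifs were searched on both strands.
Krt8 promoter, chr15:101834774-101835023, minus strand: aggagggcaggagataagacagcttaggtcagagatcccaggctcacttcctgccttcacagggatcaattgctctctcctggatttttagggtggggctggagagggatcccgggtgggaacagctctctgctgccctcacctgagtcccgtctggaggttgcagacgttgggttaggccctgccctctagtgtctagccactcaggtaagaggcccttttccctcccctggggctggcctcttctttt
Krt18 promoter, chr15:101858397-101858646, plus strand: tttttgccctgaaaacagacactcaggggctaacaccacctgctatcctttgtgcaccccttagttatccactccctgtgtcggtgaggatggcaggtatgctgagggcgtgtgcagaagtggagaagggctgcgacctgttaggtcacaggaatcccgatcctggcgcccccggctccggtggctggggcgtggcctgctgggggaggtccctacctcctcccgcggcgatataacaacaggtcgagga
Krt19 promoter, chr11:100007241-100007490, minus strand: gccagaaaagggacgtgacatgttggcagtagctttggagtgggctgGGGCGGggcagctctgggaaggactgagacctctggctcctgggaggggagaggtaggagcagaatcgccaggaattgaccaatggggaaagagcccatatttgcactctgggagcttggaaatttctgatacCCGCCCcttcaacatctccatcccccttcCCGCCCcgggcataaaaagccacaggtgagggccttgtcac
Krt5 promoter, chr15:101543323-101543572, minus strand: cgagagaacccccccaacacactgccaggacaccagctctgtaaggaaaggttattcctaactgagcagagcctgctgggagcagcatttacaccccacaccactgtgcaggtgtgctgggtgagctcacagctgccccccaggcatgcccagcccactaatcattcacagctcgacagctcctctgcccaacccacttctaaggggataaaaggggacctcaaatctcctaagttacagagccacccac
Vim promoter, chr2:13495688-13495937, plus strand: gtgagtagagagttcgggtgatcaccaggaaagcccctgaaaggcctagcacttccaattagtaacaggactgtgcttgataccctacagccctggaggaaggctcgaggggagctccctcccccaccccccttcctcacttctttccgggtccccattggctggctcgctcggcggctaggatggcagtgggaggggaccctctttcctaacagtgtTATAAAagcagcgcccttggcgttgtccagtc
No AP-1 letters (TGANTCA) were found in any of the 7 windows, against 6.17% of 24348 windows of the same length, each before the start of a gene's transcript in the deposited tables. Those of the GC box (GGGCGG) were found in *Krt7* (4 matches), *Krt19* (3) and *Krt80* (2), against 41.5% of all promoters. The core promoter box (TATAAA) was found in *Vim* alone among the 7, against 12% of all promoters. The windows of *Krt8*, *Krt18* and *Krt5* held none of the 8 motifs searched. Of the other motifs, that of HIF (ACGTG) was found once in *Krt19*, against 17.4% of promoters, and that of NF-kB once in *Vim*, against 1.39%. The CRE motif (TGACGTCA) was in none of the 7 and in 2.06% of promoters. The TEAD motif (GGAATG) was in none of the 7 and in 11.6% of promoters. The STAT motif (TTCNNNGAA) was in none of the 7 and in 6.86% of promoters. A match of letters is a description of the window and no evidence of binding.

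Before the comparisons, the libraries were checked. Totals ran from 51007366 to 107969888 counts per library, with 1 transcript for each gene. *Tet2* was not lower in the baseline libraries labelled *Tet2*-/- (9.25, 16.6 and 10.3 FPKM, against 9.15, 6.25 and 7.33 in WT; FPKM is fragments per kilobase of transcript, scaled to the mapped reads of the library), and after IR it was 2.64, 3.20 and 1.76 FPKM against 9.34, 3.97 and 3.86 in WT. Which exons the allele removes is not given in the sources used here, so a count over the whole transcript is a limited check, and the genotype is given as labelled. The 12 proximal tubule genes summed to 4430 to 5577 FPKM in the 6 baseline libraries and to 3062 to 3633 FPKM in WT and 1219 to 1861 FPKM in *Tet2*-/- labelled kidneys after IR. Adipocyte genes stood out in WT baseline replicates 2 and 3 (39.1 and 124 summed FPKM) and *Tet2*-/- labelled IR replicate 3 (156), against 0.135 to 8.20 in the other 9. Results are therefore also given without these 3 libraries where their call changed. Genes used by urothelium (*Upk1a*, *Upk1b*, *Upk2*, *Upk3a*, *Upk3b* and *Psca*) summed to 42.3, 128 and 74.2 FPKM in WT baseline, 39.1, 6.71 and 8.13 in *Tet2*-/- labelled baseline, 91.3, 66.9 and 19.3 in WT IR, and 25.7, 24.9 and 36.9 in *Tet2*-/- labelled IR. None of these 6 genes was at 0 in any library. The amount of pelvis in a kidney piece was not recorded in the sources used here.

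In unoperated kidneys *Krt7* and *Krt8* were the most abundant of the 7. Per transcript length, the order of mean levels in WT was *Krt7* (66.4 ± 12.6 FPKM, SD, n = 3), *Krt8* (62.0 ± 6.55), *Krt18* (31.4 ± 14.9), *Vim* (15.0 ± 3.17), *Krt19* (9.19 ± 4.08), *Krt80* (4.08 ± 1.76) and *Krt5* (3.65 ± 2.03). Neighbours in this order overlapped between libraries except *Krt8* above *Krt18* and *Krt18* above *Vim*. In *Tet2*-/- labelled baseline kidneys *Vim* stood above *Krt18* on average, with overlap, and *Krt5* was the lowest at 0.348 ± 0.270 FPKM (SD, n = 3). After IR the leading gene was *Krt8* in both genotypes. It stood at 206 ± 70.8 FPKM in WT and 469 ± 33.6 FPKM in *Tet2*-/- labelled kidneys, above *Krt7* in all 6 libraries (SD, n = 3 each). The last places were held by *Krt5* and *Krt80*, which overlapped in both IR groups.

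**Figure D1:**
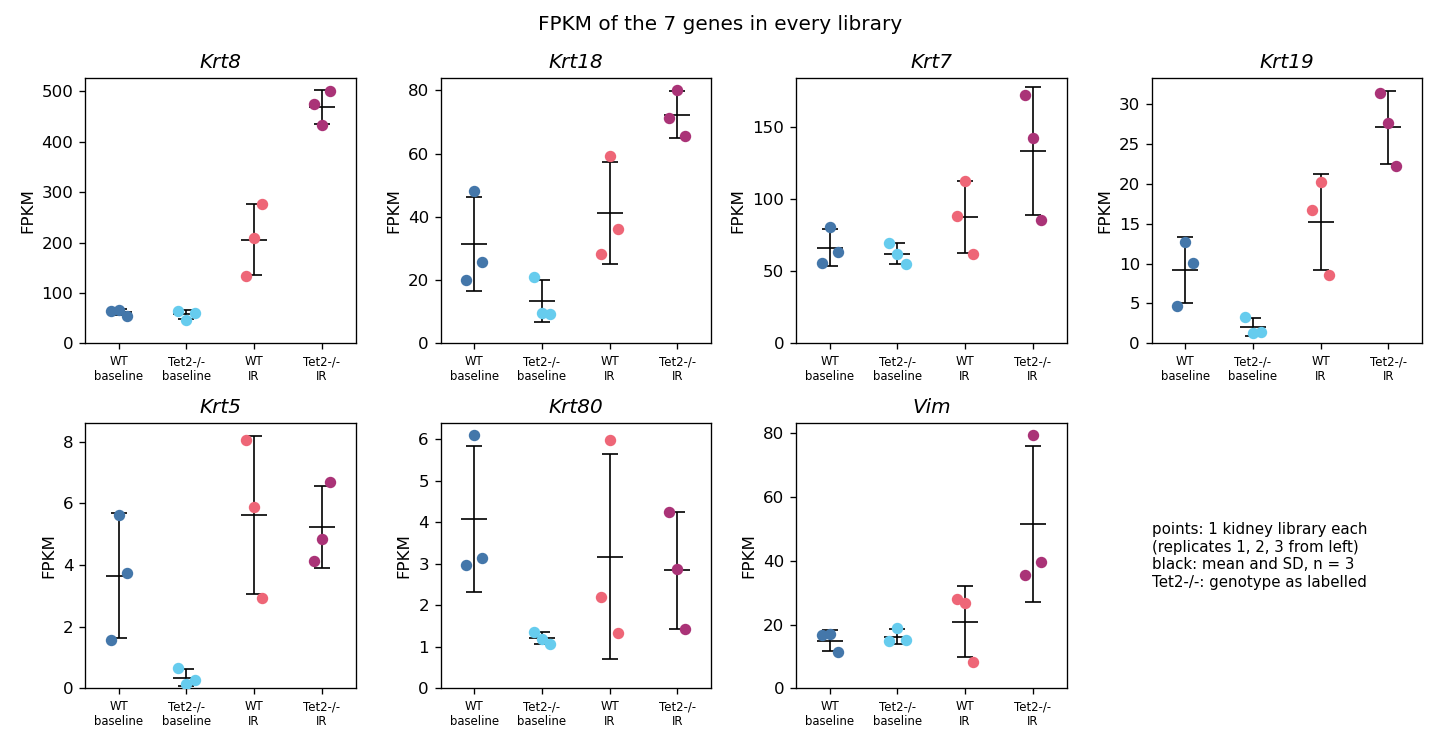
FPKM of each of the 7 genes (y axis) in the 12 libraries by group, with points for libraries and black bars for the mean and SD of 3 libraries. *Krt8* rises from 47.4 to 67.2 FPKM in baseline libraries to 134 to 276 FPKM in WT IR and 433 to 500 FPKM in *Tet2*-/- labelled IR libraries, with no overlap.

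IR in WT kidneys raised *Krt8* and none of the other 6 past the threshold. *Krt8*, which encodes the type II subunit of the simple epithelial pair, was 64.1, 67.2 and 54.6 FPKM at baseline and 134, 208 and 276 FPKM after IR. All 3 IR libraries lay above all 3 baseline libraries, and the spread among IR libraries was wide. The change was 3.23-fold (log2 fold change 1.69, SE 0.29, adjusted p = 0.0341 in edgeR's quasi-likelihood test over all genes; calls required an adjusted p below 0.05 together with an absolute log2 fold change above 1). The call was lost when any 1 WT baseline library, or WT IR replicate 2 or 3, was left out (log2 fold change 1.35 to 1.77, adjusted p 0.0580 to 0.126), and without WT baseline replicates 2 and 3 together (1.63, adjusted p = 0.374). It was also lost with log2 of the urothelium sum as a covariate, a setting added after the data were seen (1.43, adjusted p = 0.0658). Of all 16043 genes tested, 1.47% were called higher and 0.879% lower, together 2.35%, against 1 of the 7 members higher and none lower.

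The other members of WT kidneys stayed within overlapping ranges. *Krt18*, the type I partner of *Krt8*, was 20.2, 48.2 and 25.7 FPKM at baseline and 28.4, 59.3 and 36.1 FPKM after IR (log2 fold change 0.33, 95% interval −0.55 to 1.21, adjusted p = 0.631). *Vim* was 16.6, 16.9 and 11.3 FPKM at baseline and 27.9, 26.6 and 8.30 FPKM after IR. WT IR replicate 3, the lowest, was also the lowest of the 12 libraries in endothelial (9.50 summed FPKM), podocyte (3.23), fibroblast (11.2) and smooth muscle genes (8.91), and the part of these in *Vim* was not tested. The *Vim* difference was 0.40 on the log2 scale (95% interval −0.54 to 1.33, adjusted p = 0.588). For *Krt19*, *Krt5*, *Krt7* and *Krt80* the log2 fold changes were 0.64, 0.54, 0.32 and −0.45, with adjusted p from 0.387 to 0.659.

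In the libraries labelled *Tet2*-/-, IR raised 5 of the 7 genes, *Krt8*, *Krt18*, *Krt19*, *Krt5* and *Vim*, by 2.61 to 12.9-fold. *Krt8* went from 63.7, 47.4 and 60.9 FPKM to 474, 433 and 500 FPKM, a 6.88-fold change (95% interval 4.94 to 9.58, log2 fold change 2.78, SE 0.21, adjusted p = 0.00014). *Krt18* went from 21.1, 9.73 and 9.29 FPKM to 71.3, 80.1 and 65.6 FPKM (log2 fold change 2.18, SE 0.31, adjusted p = 0.0013). For both partners the lowest IR library was over 3 times the highest baseline library. Of all 16375 genes tested here, 12.8% were called higher and 11.6% lower, so calls were frequent in this comparison, and the median log2 fold change of the 7 genes was 2.18 against 0.04 over all genes tested. Both IR comparisons have their own 6 libraries and share none.

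*Krt19* encodes the smallest type I keratin, which lacks most of the tail domain. It was 3.29, 1.29 and 1.46 FPKM in *Tet2*-/- labelled baseline kidneys and 31.3, 27.7 and 22.2 FPKM after IR (log2 fold change 3.5, SE 0.36, adjusted p = 0.00043). *Krt5*, the type II keratin of basal cells, rose from 0.649, 0.129 and 0.266 FPKM to 4.13, 4.84 and 6.70 FPKM (log2 fold change 3.69, SE 0.57, adjusted p = 0.0020). *Krt5* counts behind the baseline values were 42.5 to 106 per library. In the same comparison the 6 urothelium genes had a median log2 fold change of 0.87, and 1 was called higher (*Upk1b*, 2.05, adjusted p = 0.0406). For both genes the baseline libraries of this genotype lay below the WT baseline libraries, whereas the levels reached after IR were 22.2 to 31.3 FPKM for *Krt19*, above WT IR (8.55 to 20.2), and 4.13 to 6.70 FPKM for *Krt5*, within WT IR (2.93 to 8.04).

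*Vim* rose from 14.7, 18.9 and 15.1 FPKM to 35.5, 79.4 and 39.5 FPKM (log2 fold change 1.38, SE 0.27, adjusted p = 0.0059). The groups did not overlap, and replicate 2 was the highest of the 12 libraries. The same replicate was also highest in the summed leukocyte genes (290 FPKM, against 13.8 to 155 in the other 11) and in the summed fibroblast (74.7 FPKM), podocyte (87.8 FPKM) and smooth muscle genes (117 FPKM). Vimentin transcripts are expected from those cells as well as from tubules. In bulk tissue, more cells of a type and more RNA per cell cannot be told apart, and the part of these cells in *Vim* was not tested. The type II gene *Krt7* was 69.4, 62.2 and 55.0 FPKM at baseline and 172.3, 142 and 85.5 FPKM after IR. It passed the adjusted p (0.0233) with a change under the fold threshold (log2 fold change 0.83, SE 0.23). *Krt80*, a type II keratin known from desmosome-rich cell margins, was 1.36, 1.19 and 1.07 FPKM at baseline and 4.24, 2.87 and 1.43 FPKM after IR (log2 fold change 0.97, SE 0.37, adjusted p = 0.0694). The lowest IR values of *Krt7* and *Krt80* were both in replicate 3, the library high in adipocyte genes. Without it both were called (log2 fold change 1.04, adjusted p = 0.0040, and 1.27, adjusted p = 0.0108).

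**Figure D2:**
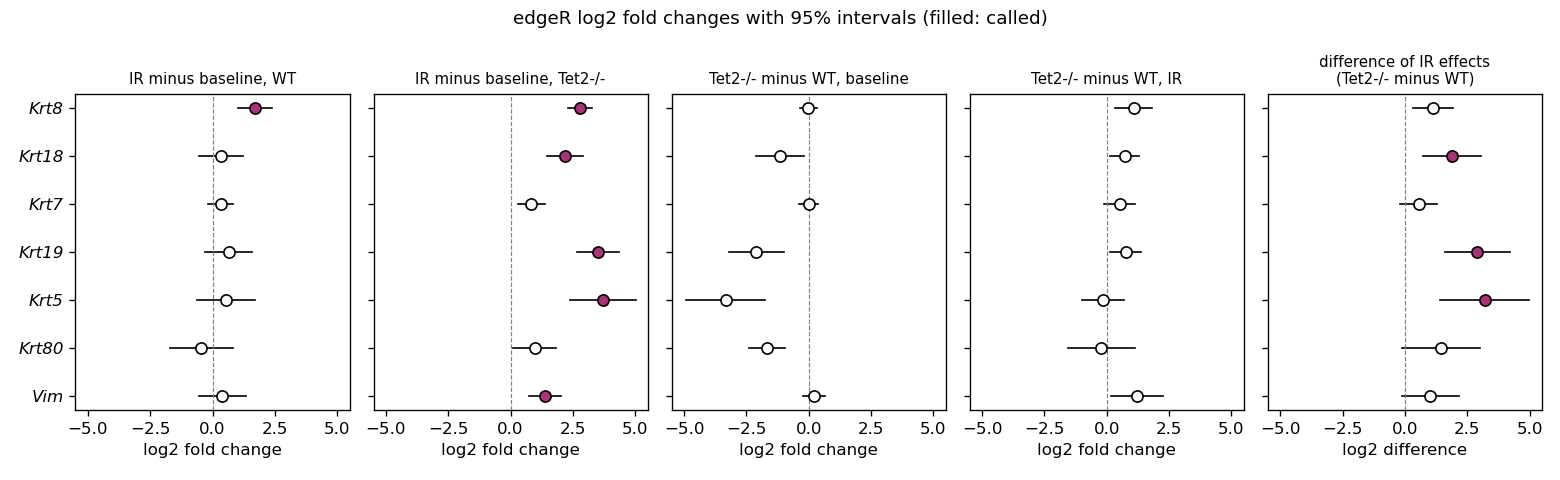
Log2 fold change of each gene with its 95% interval in the 4 comparisons and, in the last panel, the log2 difference of the IR effects, *Tet2*-/- labelled minus WT, with filled points for called genes. In WT kidneys 1 gene is filled, in *Tet2*-/- labelled kidneys 5, in the genotype panels 0, and in the difference panel 3.

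At baseline no member was called between genotypes by edgeR's quasi-likelihood test, although *Krt5*, *Krt19* and *Krt80* did not overlap. The share of all genes without overlap between these groups was not counted. Of 16108 genes tested 0.0124% were called in either direction, while 1893 had an unadjusted p under 0.05. Among the 7 genes, 4 had such a p (*Krt5*, *Krt18*, *Krt19* and *Krt80*), all lower in the libraries labelled *Tet2*-/-. *Krt5* was 1.57, 5.63 and 3.75 FPKM in WT and 0.649, 0.129 and 0.266 FPKM in *Tet2*-/- labelled kidneys (log2 fold change −3.33, SE 0.68, adjusted p = 0.208). *Krt19* was 4.73, 12.7 and 10.1 FPKM in WT (log2 fold change −2.11, SE 0.47, adjusted p = 0.222), and *Krt80* 2.98, 6.11 and 3.15 FPKM (log2 fold change −1.67, SE 0.31, adjusted p = 0.207). These 3 genes were called by DESeq2 (adjusted p 3.5e-06 to 0.00028) and by edgeR's exact test (0.00046 to 0.0030). For *Krt7*, *Krt8* and *Vim* the log2 differences were −0.01, −0.02 and 0.21, with 95% intervals of −0.38 to 0.37, −0.37 to 0.33 and −0.21 to 0.63.

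The genes of urothelium moved with this baseline difference. Their median log2 fold change was −2.47, 5 of 6 had an unadjusted p under 0.05 and none was called. WT baseline replicate 1 and *Tet2*-/- labelled baseline replicate 1 had near equal urothelium sums (42.3 and 39.1 FPKM), but not gene by gene. *Psca* was 22.1 and 27.8 FPKM and *Upk3b* 2.68 and 2.72 FPKM. *Upk1a* was 5.36 and 2.39 FPKM, *Upk1b* 3.53 and 1.80, *Upk2* 3.86 and 1.54, and *Upk3a* 4.73 and 2.83. In this pair *Krt5* was 1.57 and 0.649 FPKM, *Krt19* 4.73 and 3.29, *Krt18* 20.2 and 21.1, and *Krt80* 2.98 and 1.36. With log2 of the urothelium sum as a covariate, a setting added after the data were seen, the log2 differences were −1.26 for *Krt5* (adjusted p = 0.469), −0.60 for *Krt19*, −0.99 for *Krt80* and 0.22 for *Krt18*.

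After IR no member was called between genotypes by edgeR's quasi-likelihood test on the 6 IR libraries, and 6.16% of 16210 genes were (2.30% higher and 3.86% lower). *Krt8*, *Krt18*, *Krt19* and *Vim* were higher in all 3 libraries labelled *Tet2*-/- than in any WT library. How many of all genes were separated in this way was not counted. The log2 fold changes were 1.07 for *Krt8* (SE 0.32, adjusted p = 0.0777), 0.72 for *Krt18* (SE 0.24, adjusted p = 0.108), 0.76 for *Krt19* (SE 0.26, adjusted p = 0.111) and 1.21 for *Vim* (SE 0.45, adjusted p = 0.129). All 4 had an unadjusted p under 0.05 (4675 genes in all did). DESeq2 called *Krt8* and *Vim* (adjusted p 0.0086 and 0.0442) and edgeR's exact test called *Krt8* (0.0111). The quasi-likelihood test called *Krt8* and *Vim* when all 12 libraries were in a single fit (adjusted p 0.0152 and 0.0451), and *Krt8* with library sizes alone (0.0419). *Krt7* (log2 fold change 0.52, 95% interval −0.12 to 1.15), *Krt5* (−0.16, −0.999 to 0.67) and *Krt80* (−0.22, −1.57 to 1.12) overlapped between genotypes.

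The IR effect differed between genotypes past the threshold for *Krt5*, *Krt19* and, narrowly, *Krt18*. Interaction calls required only an adjusted p below 0.05, without the fold limit of the other comparisons. In the interaction test over the 12 libraries, in which 9.19% of 16755 genes were called (3.81% higher and 5.38% lower), the IR effect was larger in *Tet2*-/- labelled kidneys by 3.20 on the log2 scale for *Krt5* (SE 0.81, adjusted p = 0.0339), by 2.90 for *Krt19* (SE 0.59, adjusted p = 0.0149) and by 1.89 for *Krt18* (SE 0.53, adjusted p = 0.0483). All 3 had a negative fitted genotype difference at baseline, and *Krt18* and *Krt19* a positive one after IR, none of these called by edgeR's quasi-likelihood test. For *Krt8* the difference was 1.13 (SE 0.36, adjusted p = 0.0704), and it was called by DESeq2 (adjusted p = 0.0343), with library sizes alone (0.0342), by limma with either pseudocount (0.0283 and 0.0322) and without WT IR replicate 3 (0.0251). The difference was 1.46 for *Krt80* (adjusted p = 0.213), 1.02 for *Vim* (adjusted p = 0.232) and 0.55 for *Krt7* (adjusted p = 0.321). Same-numbered WT libraries, and same-numbered *Tet2*-/- labelled libraries, deviated together, and with the replicate number as a block *Krt80* was also called (1.52, adjusted p = 0.0453). The *Krt19* difference was called without each library in turn, while *Krt5* and *Krt18* were often not (adjusted p up to 0.0925 and 0.120). The *Krt18* call was also lost with DESeq2's size factors (adjusted p = 0.0507) and with counts summed over transcripts (0.0513), and the *Krt5* call with limma on log2(FPKM + 1) (0.0673). Without WT baseline replicates 2 and 3 together, the libraries high in adipocyte genes, the differences were 1.94 for *Krt5*, 1.90 for *Krt19* and 1.22 for *Krt18*, and none was called (adjusted p 0.170 to 0.296).

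*Krt5* and *Krt19* were higher after IR relative to the urothelium genes of the same library. For each 100 FPKM of urothelium genes, *Krt5* was 3.71 to 5.06 FPKM in WT baseline, 1.66 to 3.27 in *Tet2*-/- labelled baseline, 8.79 to 15.2 in WT IR and 16.1 to 19.4 in *Tet2*-/- labelled IR libraries. For *Krt19* the values were 9.91 to 13.6, 8.43 to 19.3, 18.3 to 44.3 and 60.2 to 122. In both ratios the 6 IR libraries stood above the baseline libraries of their own genotype. With the urothelium sum as covariate the interaction was 2.03 for *Krt5* (adjusted p = 0.0355), 2.10 for *Krt19* (adjusted p = 0.0203) and 1.30 for *Krt18* (adjusted p = 0.166). The part of urothelium in these values was not tested further, and the amount of pelvis and the level per cell cannot be told apart.

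**Figure D3:**
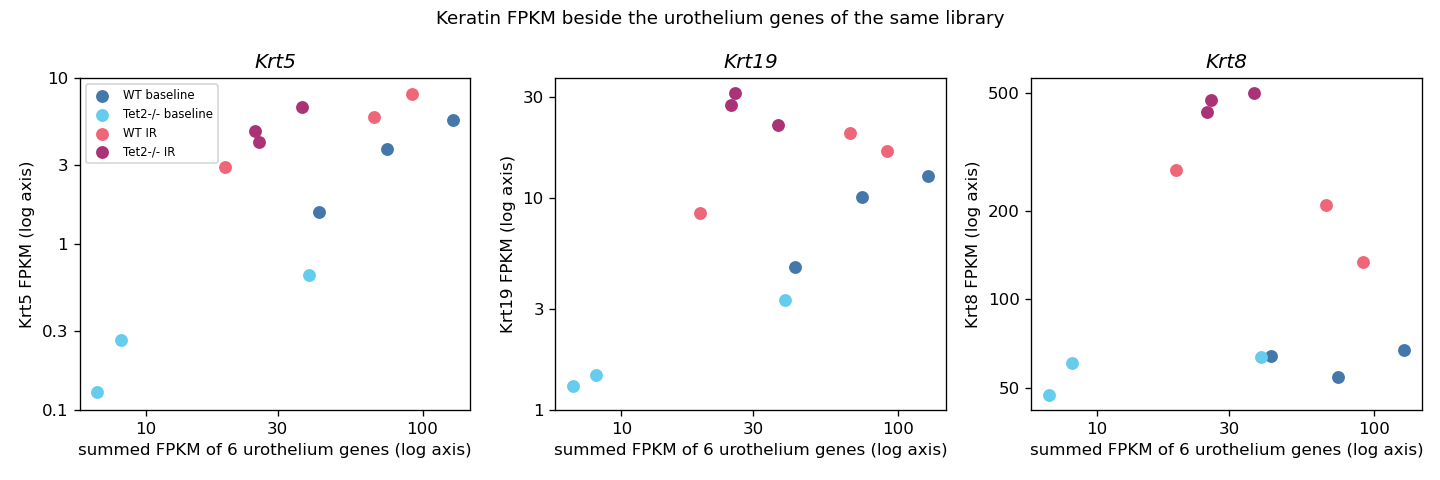
*Krt5*, *Krt19* and *Krt8* FPKM (y, log axis) against the summed FPKM of 6 urothelium genes (x, log axis) in the same library, with points coloured by group. *Tet2*-/- labelled IR libraries sit at 24.9 to 36.9 urothelium FPKM, with *Krt19* at 22.2 to 31.3 FPKM, above the WT baseline libraries that hold 42.3 to 128 urothelium FPKM.

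The summed keratin transcripts were higher after IR in every library, and their composition differed. Over all 52 keratin genes of the tables, the summed FPKM was 158 to 234 in WT baseline, 126 to 165 in *Tet2*-/- labelled baseline, 321 to 545 in WT IR and 965 to 1168 in *Tet2*-/- labelled IR libraries. *Krt8* made up 28.7 to 40.5% of the pool in WT baseline, 37.7 to 46.0% in *Tet2*-/- labelled baseline, 41.7 to 50.6% in WT IR and 40.6 to 44.9% in *Tet2*-/- labelled IR, so its share overlapped before and after IR in the latter genotype. The share of *Krt7* was 34.3 to 36.8% in WT baseline, 41.6 to 49.6% in *Tet2*-/- labelled baseline, 11.4 to 27.4% in WT IR and 7.58 to 14.8% in *Tet2*-/- labelled IR. The most abundant keratin outside the 7 after IR was *Krt20*, a type I keratin of urothelial umbrella cells and gut epithelium. It was 0.247, 1.37 and 1.01 FPKM in WT baseline, 0.038, 0.067 and 0.028 in *Tet2*-/- labelled baseline, 26.6, 56.9 and 151 in WT IR, and 400, 261 and 436 in *Tet2*-/- labelled IR. Its log2 fold change after IR was 6.46 in WT (SE 0.94, adjusted p = 0.0219) and 12.61 in *Tet2*-/- labelled kidneys (SE 0.48, adjusted p = 4.4e-05), with 5 to 20 counts per library behind the baseline of the latter. *Krt20* thus passed the filter in the latter comparison through its IR libraries, which fixed that it came out higher there. Its share of the pool was 27.0 to 38.7% in *Tet2*-/- labelled IR, second to *Krt8* by mean.

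**Figure D4:**
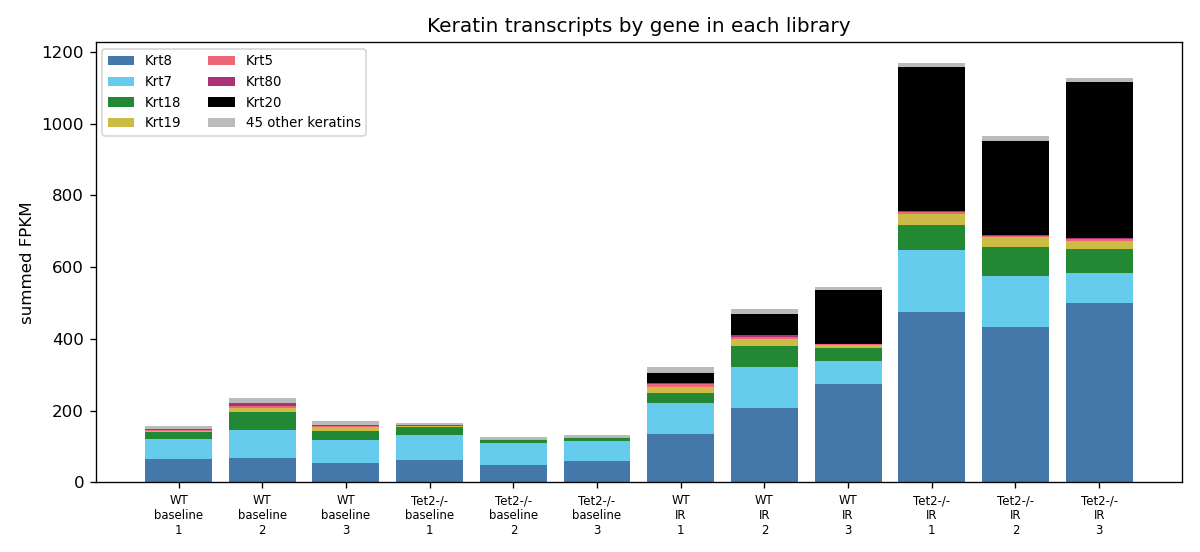
Summed FPKM of the 52 keratin genes in each library (y axis, from 0), stacked by gene, with the 45 genes other than the 6 member keratins and *Krt20* in grey. The columns reach 126 to 234 FPKM at baseline, 321 to 545 in WT IR and 965 to 1168 in *Tet2*-/- labelled IR, where *Krt8* and *Krt20* are the widest bands.

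Because keratins pair across types, the balance of partners was also compared. The ratio of *Krt8* to *Krt18* FPKM was 3.18, 1.39 and 2.12 in WT baseline and 4.73, 3.51 and 7.64 in WT IR, with no overlap. The same ratio in *Tet2*-/- labelled kidneys was 3.02, 4.87 and 6.56 at baseline and 6.65, 5.41 and 7.62 after IR, with overlap. The ratio of all type II to all type I keratins was 3.69, 2.15 and 2.69 in WT baseline, 4.58, 7.67 and 7.88 in *Tet2*-/- labelled baseline, 2.65, 2.20 and 1.69 in WT IR, and 1.29, 1.53 and 1.11 in *Tet2*-/- labelled IR. In the last group both types were thus closest to equal. Without *Krt20* the ratio was 2.19 to 3.71 in WT baseline, 4.58 to 7.89 in *Tet2*-/- labelled baseline, 3.53 to 6.61 in WT IR and 4.86 to 6.08 in *Tet2*-/- labelled IR, so baseline and IR overlapped in both genotypes, as they did in WT with *Krt20* included. Over 8 two-sided exact permutation tests on these ratios the smallest p was 0.1, the lowest that 3 against 3 libraries allow (Benjamini-Hochberg adjusted 0.2), so no test could pass 0.05. The level of *Krt8* and *Krt18* relative to each other may also depend on how shared reads were placed, which was not tested. The interval chr7:24142113-24143830, within the gene *Nlrp4e*, matched the *Krt8* transcript at 97.9% identity over an alignment of 1734 positions, gaps included, and chr13:118246579-118247933 matched *Krt18* at 90.5% over 1385 positions. *Krt5* had 2 other matching loci, the longest alignment of 239 positions at 97.9%, and *Krt7* had 26, the longest of 267 positions at 90.6%. *Krt19*, *Krt80* and *Vim* had no other alignment of at least 200 positions at 90% identity.

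**Figure D5:**
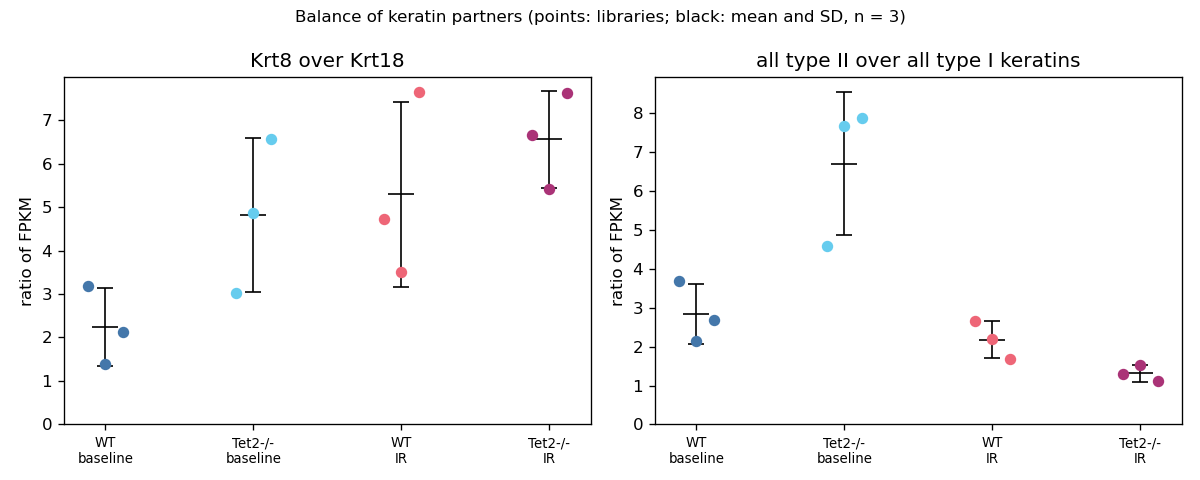
Ratio of *Krt8* to *Krt18* FPKM (left) and of all type II to all type I keratin FPKM (right) by group, with points for libraries and black bars for mean and SD of 3 libraries. The right-hand ratio falls from 4.58 to 7.88 in *Tet2*-/- labelled baseline libraries to 1.11 to 1.53 after IR.

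The rest of the filament system was followed through lists of related genes. Of the 46 other keratins, 9 passed the count filter in the WT IR comparison, and 2 were called higher (*Krt20* and *Krt4*). Of the 12 that passed in *Tet2*-/- labelled kidneys, 7 were called higher and none lower. Over all genes tested, 1.47% were called higher in WT, and 12.8% higher and 11.6% lower in *Tet2*-/- labelled kidneys. Among the 7, *Krt14*, the type I partner of *Krt5* in basal cells, was 0.291, 0.058 and 0.270 FPKM at baseline and 2.80, 2.90 and 3.27 FPKM after IR (log2 fold change 3.63, adjusted p = 0.0020). *Krt15*, another type I keratin of basal cells, was 0.648, 0.147 and 0.646 FPKM and then 1.82, 4.17 and 1.22 FPKM (log2 fold change 2.04, adjusted p = 0.0348). Its WT baseline values were 2.37, 1.78 and 3.33 FPKM, so the IR values of *Tet2*-/- labelled kidneys overlapped those of unoperated WT. *Krt12*, *Krt17* and *Krt79*, named here after their values were seen, averaged 0.0023 to 0.014 FPKM at baseline, and *Krt4* 0.057 FPKM in WT and 0.023 FPKM in *Tet2*-/- labelled baseline kidneys. None of these 4 passed the filter between the baseline groups, so they were tested only through the IR libraries, and the filter fixed that they came out higher. The counts therefore say nothing of keratins as a group.

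Among the 14 other cytoplasmic and nuclear filament genes, 1 of 10 tested was called higher in WT, *Lmnb1*, which encodes lamin B1 of the nuclear envelope (log2 fold change 1.19, adjusted p = 0.0357). In *Tet2*-/- labelled kidneys 4 of 12 were called higher and 1 lower. Over all genes tested the shares were 1.47% higher in WT, and 12.8% higher and 11.6% lower in *Tet2*-/- labelled kidneys. The largest change of a gene above 1 FPKM was that of *Nes*, nestin, a type VI filament protein that co-assembles with vimentin. It was 1.49, 2.08 and 1.43 FPKM at baseline and 10.6, 11.7 and 8.07 FPKM after IR (log2 fold change 2.34, adjusted p = 0.00018). In WT it was 2.18, 2.51 and 2.16 FPKM at baseline and 2.25, 3.39 and 1.44 FPKM after IR (log2 fold change −0.03, adjusted p = 0.953). The difference of these IR effects was 2.41 on the log2 scale (adjusted p = 0.0040). *Lmna* (lamin A/C) rose by 1.34 and *Lmnb1* by 1.42 on the log2 scale in *Tet2*-/- labelled kidneys. In WT *Lmna* was higher after IR by 0.85 (adjusted p = 0.0367, edgeR), under the fold threshold.

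Keratin filaments are anchored to desmosomes and hemidesmosomes by plakins. Of 17 tested genes of these junctions, none was called in WT by edgeR's quasi-likelihood test, while 6 had an unadjusted p under 0.05. In *Tet2*-/- labelled kidneys 7 were called higher and 1 lower, beside the 12.8% and 11.6% of all genes. *Itga6*, the α6 integrin of hemidesmosomes, rose by 2.33, *Dsg2*, the desmosomal cadherin of simple epithelia, by 1.97, *Plec*, the linker plectin, by 1.85 and *Ppl*, periplakin, by 1.59 on the log2 scale (adjusted p 0.00046 to 0.0227). *Evpl*, envoplakin, the partner of periplakin, fell by 1.11 on the log2 scale (adjusted p = 0.0012), and its IR effect differed between genotypes (−1.30, adjusted p = 0.0156). The median log2 fold change of the list was 0.23 in WT and 0.997 in *Tet2*-/- labelled kidneys, against −0.03 and 0.04 over all genes tested.

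The members were set beside genes of injured tubules. Of 26 such genes, 7 were called higher in WT and 22 in *Tet2*-/- labelled kidneys, none lower, where 1.47% and 12.8% of all genes tested were called higher. *Lcn2* (lipocalin 2) was 74.2, 476 and 158 FPKM in WT IR and 1923, 1849 and 908 FPKM in *Tet2*-/- labelled IR, from at most 4.24 FPKM at baseline. *Timp1*, an inhibitor of metalloproteinases, was at most 0.544 FPKM at baseline, 4.53, 12.2 and 5.36 FPKM in WT IR and 31.4, 88.0 and 16.9 FPKM in *Tet2*-/- labelled IR. *Havcr1*, kidney injury molecule 1, was 214, 559 and 670.5 FPKM in WT IR and 652, 867 and 1432 FPKM in *Tet2*-/- labelled IR. In *Lcn2*, *Timp1* and *Havcr1* alike WT IR replicate 1 was the lowest IR library, as it was in *Krt8*. *Sox9*, a transcription factor of tubule repair, was 0.186, 2.17 and 0.641 FPKM in WT IR and 4.28, 3.58 and 5.43 FPKM in *Tet2*-/- labelled IR. Of 12 proximal tubule genes, 1 fell in WT and 8 in *Tet2*-/- labelled kidneys, where *Slc34a1*, the sodium phosphate cotransporter, went from 1338, 1302 and 1811 FPKM to 228, 188 and 214 FPKM (log2 fold change −3.08). *Slc7a13*, an amino acid transporter, went from 336.5, 432 and 374 FPKM to 15.3, 9.71 and 5.18 FPKM (log2 fold change −5.51), *Slc22a8*, an organic anion transporter, from 27.8 to 68.0 FPKM to 6.43 to 20.2 FPKM, and *Lrp2*, megalin, from 53.4 to 79.7 FPKM to 19.0 to 23.8 FPKM. Over all genes tested, 0.879% fell in WT and 11.6% in *Tet2*-/- labelled kidneys.

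Other cell types of the kidney were checked with their own genes. In *Tet2*-/- labelled kidneys the summed FPKM of leukocyte genes was 13.8 to 37.8 at baseline and 85.6 to 290 after IR, but only 4 of the 10 genes were called higher (*S100a8*, *S100a9*, *Cd68* and *Itgam*), while *Ptprc* had a log2 fold change of 0.18 and *Cd3e* of −2.17, neither called. In that sum, *S100a8* was 0.576 to 0.776 FPKM at baseline and 27.4 to 47.2 FPKM after IR, *S100a9* was 0.759 to 1.43 and then 33.1 to 65.0 FPKM, and *Lyz2* was 120 FPKM in IR replicate 2 against 13.1 and 5.36 in the other IR libraries. Podocyte genes summed to 13.7 to 19.1 FPKM and then 42.9 to 87.8 FPKM, with all 5 called higher. Smooth muscle genes summed to 27.1 to 42.9 and then 72.8 to 117 FPKM, but 1 of the 4 was called, *Tagln* (16.7 to 25.5, then 49.0 to 80.4 FPKM), and *Myh11* had a log2 fold change of −0.41, not called. In WT the sums were 17.4 to 30.9 and 25.7 to 38.7 for leukocyte, 14.7 to 26.3 and 3.23 to 24.9 for podocyte, and 22.0 to 61.8 and 8.91 to 75.8 for smooth muscle genes. There 1 of the 10 leukocyte genes was called higher, *Cd68* (log2 fold change 2.88, adjusted p = 0.0084, edgeR), and no podocyte or smooth muscle gene was called. Collecting duct genes summed to 585 to 1044 in WT baseline, 400 to 701 in *Tet2*-/- labelled baseline, 508 to 804 in WT IR and 331 to 559 in *Tet2*-/- labelled IR libraries, with medians of 607, 423, 661 and 479. By gene, their median log2 fold change after IR was −0.18 in WT, with 0 of 8 called, and −0.60 in *Tet2*-/- labelled kidneys, with 2 of 8 called lower (*Aqp4* −1.97 and *Hsd11b2* −1.04). Fibroblast (11.2 to 74.7) and endothelial (9.50 to 123) sums overlapped across the 4 groups, and adrenal genes were at 0.681 to 2 FPKM throughout. The part of these cell types in the members' values was not tested.

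Finally, each member was compared with 12192 genes of at least 1 FPKM on average by the root mean square difference of centred log2 CPM (counts scaled to library size) over the 12 libraries, where 0 is the same pattern. Among the nearest to *Krt8* was *Vat1* (0.24). Nearest to *Krt18* were *Plet1* and its overlapping antisense gene *Plet1os* (0.31 each), which share a locus. Among the nearest to *Krt19* was *Psat1* (0.57), an enzyme of serine synthesis. *Krt5* was nearest to *Syt8* (0.33) and *Sprr2a3* (0.58), *Krt80* to *Atp8b1* (0.32) and *Fam174b* (0.37), *Krt7* to *Hdac4* (0.15) and *Armc7* (0.16), and *Vim* to *Grrp1* (0.23) and *Fxyd5* (0.26). Among the members the closest pairs were *Vim* with *Krt7* (0.55), *Krt18* with *Krt19* (0.62) and *Krt5* with *Krt19* (0.66), whereas the assembly partners *Krt8* and *Krt18* differed by 0.74, with 483 genes nearer to *Krt8* than *Krt18* was. *Krt19* and *Krt5* ranked high in each other's lists, with 4 genes nearer to *Krt5* and 8 nearer to *Krt19*. On the same scale *Krt7* varied about its own mean by 0.43, *Vim* by 0.76 and *Krt5* by 1.78, and genes that vary little lie close to each other on this measure.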

How the data were processed

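Total RNA of whole kidneys was extracted with Trizol, and libraries followed standard Illumina protocols. Per the labels, the authors aligned reads with STAR to mm9 and quantified RefSeq transcripts with HOMER, with edgeR for comparisons (versions not given in the sources used here). They deposited raw expected counts per transcript (38.7% not whole, rounded here to whole numbers) and FPKM values. The handling of multimapped reads and strand was not given in the sources used here. Of 34600 transcripts, the one with the highest total represented each symbol. Each comparison of 3 against 3 mice was fitted on its own 6 libraries with edgeR 4.0.16 (R 4.3.3; TMM scaling, filterByExpr, quasi-likelihood F test, Benjamini-Hochberg over all genes tested), and the interaction on 12. Depth (51007366 to 107969888 counts) sets counting error, and n = 3 sets most of the uncertainty. Same-numbered libraries correlated in deviations within WT (0.345 to 0.349) and *Tet2*-/- labelled mice (0.12 to 0.35), each best with its own number, a pairing read from the data and stated in no label. Alternatives used DESeq2 1.42.0, limma 3.58.1 on log2(FPKM + 1 or 0.1), other scalings and filters, a replicate block and left-out libraries. Promoter windows are mm9 sequence before the deposited RefSeq starts, and matches to other loci came from GENCODE transcripts and BLAST 2.17.0. All 7 members are named. From each related list up to 4 called genes of at least 1 FPKM with no overlap between groups, ranked by fold change, are named, as are the 2 genes most like each member (for *Krt8* and *Krt19* only 1 is reported here), and other named genes (*Krt4*, *Evpl*) were chosen after their values were seen. Members and lists were chosen with earlier results of these data known.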

Additional observations from a re-analysis of the deposited data

Results flagged for a closer look

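The IR effect differed between genotypes by the interaction test for 3 members, larger in the libraries labelled *Tet2*-/- by 3.20 on the log2 scale for *Krt5*, by 2.90 for *Krt19* and by 1.89 for *Krt18*. *Krt5*, *Krt19* and *Krt18* had IR log2 fold changes of 0.54, 0.64 and 0.33 in WT and of 3.69, 3.5 and 2.18 in *Tet2*-/- labelled kidneys, each pair from separate libraries. With single libraries of the 12 left out, the call was lost in 8 cases for *Krt5*, in 9 for *Krt18* and in 0 for *Krt19*, and without WT baseline replicates 2 and 3 together it was lost for all 3 (1.94, 1.90 and 1.22 for *Krt5*, *Krt19* and *Krt18*, adjusted p 0.170 to 0.296). The summed urothelium genes were lowest in *Tet2*-/- labelled baseline replicates 2 and 3 (6.71 and 8.13 FPKM), the libraries in which *Krt19* (1.29 and 1.46 FPKM) and *Krt5* (0.129 and 0.266 FPKM) were lowest. Groups of 3 are too small for a test of outlying libraries.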

How the results depend on the processing

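In *Tet2*-/- labelled kidneys 5 members were called after IR, and 5 to 7 under all 21 alternatives. In WT the count of 1 was 0 to 1 with single libraries left out, 0 without WT baseline replicates 2 and 3 together and 0 with the urothelium covariate. At baseline the count of 0 between genotypes was 3 by DESeq2 and 3 by edgeR's exact test. After IR the count of 0 was 2 by DESeq2 and 2 in a single fit of 12 libraries (*Krt8* and *Vim* in both), 1 by the exact test, 1 with library sizes alone, 1 by limma with either pseudocount (*Krt8* in each), and 0 to 1 with libraries left out. The interaction count of 3 was 1 to 4 with libraries left out, 0 without WT baseline replicates 2 and 3, and 0 without these and *Tet2*-/- labelled IR replicate 3, a setting added after the data were seen. With a replicate block the interaction count was 4 and the count between genotypes after IR was 1 (*Krt8*, 1.15, adjusted p = 0.0486). The block changed no other member count, and the deviations of same-numbered libraries of the 2 genotypes correlated by −0.175 to 0.0535 at baseline and −0.0012 to 0.302 after IR, where the third pair was best with its own number and the other two were not. Some differences that were not called changed sign. At baseline these were *Krt7* (0.0010 with upper quartile scaling, 0.0071 with the replicate block, 0.26 without WT baseline replicates 2 and 3, −0.12 to 0.15 with libraries left out), *Krt8* (−0.10 to 0.10 with libraries left out) and, with the urothelium covariate, *Krt7* (0.38), *Krt8* (0.19) and *Krt18* (0.22, against −1.15 without it). After IR these were *Krt5* (0.35 with the covariate, −0.46 to 0.17 with libraries left out) and *Krt80* (0.20 with the covariate, −0.65 to 0.55 with libraries left out, 0.063 in the added setting). The cause was not tested. Over all genes the called counts of 377, 3984, 2, 998 and 1539 ran from 1 to 1066, 2243 to 7068, 2 to 356, 306 to 1744 and 3 to 2801. In all, 1002 alternative values over 66 results were compared with their main value. A log2 fold change was the same if it kept its direction and side of the threshold. A count of called genes was the same if near the main count, and a ratio of means if within 1 SD. By these rules 849 were the same, 77 weaker (a lost call or a smaller count) and 58 stronger (a new call or a larger count). A further 16 changed sign and 2 ratios moved by over 1 SD.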

Other observations

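Of the keratins outside the 7 members, *Krt23*, a type I keratin chosen here after its values were seen, was 2.07, 6.53 and 2.58 FPKM in WT baseline, 1.53, 0.779 and 0.563 in *Tet2*-/- labelled baseline, 0.828, 2.81 and 0.637 in WT IR and 2.01, 2.49 and 1.82 in *Tet2*-/- labelled IR libraries. Its log2 fold change after IR was −1.46 in WT (adjusted p = 0.241, edgeR) and 0.88 in *Tet2*-/- labelled kidneys (adjusted p = 0.0961), neither called. *Krt10*, the type I keratin of differentiated epidermis, also chosen after its values were seen, was 2.54 to 3.38 FPKM in WT baseline, 2.26 to 2.50 in *Tet2*-/- labelled baseline, 2.07 to 3.10 in WT IR and 1.46 to 2.01 in *Tet2*-/- labelled IR libraries. In the latter genotype the IR libraries of *Krt10* lay below its baseline libraries (log2 fold change −0.71, adjusted p = 0.0350, under the fold threshold), while those of the 7 members all lay above theirs. In that comparison 8497 of 16375 genes tested had an unadjusted p under 0.05 in edgeR, and the share without overlap was not counted. *Krt15* was 9.11, 6.02 and 2.97 FPKM in WT IR against 1.82, 4.17 and 1.22 FPKM in *Tet2*-/- labelled IR (log2 fold change −1.43, adjusted p = 0.117, edgeR).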
